A study of Mus musculus with 12 samples.

Results

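The 35 genes described here mark the neural lineage or build the neuron, and run in role from neural tube transcription factors through progenitor proteins to the cytoskeleton and the synapse. They were found by gene symbol: every probe set whose single platform symbol was a member was taken, which gave 63 probe sets on the MOE430A array (array A) and 22 on the MOE430B array (array B), or 85 of 45265 in all. The members are 35 of the 18193 genes that a single symbol names on these arrays. A probe set is the group of short oligonucleotides that reports a transcript or a stretch of it.

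The arrays measured total RNA of R1, a mouse embryonic stem cell line derived from a blastocyst. The RNAs are named D1, D2 and D3 for the RNAs labelled differentiated, which the labels describe as embryoid bodies, and U1, U2 and U3 for the RNAs labelled undifferentiated, with an estimated purity of 95% judged by eye. Both groups carry the same growth text, D-MEM with 10% FBS in bacterial dishes for 5 days, so the labels do not say how the cultures differed, and no neural inducer is named for either group. Each of the 6 RNAs was hybridised once to each array type, which gave 12 arrays. No label ties the 3 RNAs of either group to different cultures, and the p-values therefore reflect how far these preparations vary, possibly for technical reasons alone.

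Neural tissue arises from the ectoderm of the embryo. Progenitors there express patterning factors such as Pax6 and RNA-binding proteins of the Musashi family, proneural basic helix-loop-helix factors then commit cells to the neuronal fate, and young neurons assemble a cytoskeleton of neuronal tubulin, stathmins and neurofilaments before they build synapses. Embryoid bodies are floating aggregates in which stem cells form derivatives of all germ layers, and extraembryonic endoderm is usually among the first.

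Signals are intensities on a linear scale after each array was set to a common trimmed mean of 500, and differences are differentiated minus undifferentiated on the log2 scale, with 3 RNAs a group. A signal belongs to its own probe set, so levels are not set against each other between probe sets. Array D1 stood apart on array A, with a median correlation of 0.881 with the other arrays against 0.912 to 0.922 for the rest, and its actin 3′ to 5′ ratio (log2 0.70 against 0.13 to 0.31) was the highest. U2 stood apart on array B (0.697 against 0.810 to 0.852). On array A the fluidics station separated D1, D2 and D3 from U1, U2 and U3, so the 2 cannot be told apart, and the array lot was shared by D1, D2, D3 and U1. On array B the lot was the same for every RNA, and D1, D2, D3 and U1 shared a station that U2 and U3 did not. A block for the array B station therefore sets the differentiated RNAs against U1 alone.

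Of the 85 member probe sets, 68 were bright enough to test (47 on array A, 21 on array B), which cover 30 genes. The 17 others had no scaled signal above 144 on any array, and 63 of their 102 array values lay at or below the floor of 32. Neurog2, a proneural factor of sensory and cortical neurons, and Fabp7, the fatty acid binding protein of radial glia, had no probe set bright enough to test. The same held for Olig1 and Olig2, factors of the oligodendrocyte lineage, and for Stmn4, a stathmin of neurons. Brightness was judged on the mean log2 signal over all 6 arrays of a type, not within a group. Fabp7 had 41.7, 33.3 and 80.6 in D1, D2 and D3, against 21.1, 3.8 and 11.9 in U1, U2 and U3. Neurog2 had 15.3 to 21.6 in the differentiated RNAs and 9.7 to 137 in the undifferentiated ones, with U1 the highest. Neither difference was tested.

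Few members changed, and those that did were mostly genes of the axonal cytoskeleton. The neurofilament genes Ina and Nefl fell in the differentiated RNAs, as did Stmn2, a stathmin of growing axons, while Msi1, a Musashi protein of neural progenitors, rose. On array A, 1 member probe set rose, 5 fell and 41 did not pass (limma, Benjamini-Hochberg adjusted p at a threshold of 0.05). The share called, 12.8% of the 47, stands beside 2.87% of the 18025 probe sets tested on array A, and the share that fell, 10.6%, beside 1.56%. Of all probe sets on array A 1.31% rose. The 5 probe sets that fell belong to 3 genes, and 3 of them report Ina, so these are not independent of each other. On array B, 0 of 21 members passed, against 0.0197% of 20344 probe sets. At an unadjusted limma p under 0.05 there were 11 of 47 member probe sets on array A, beside 15.8% of all. On array B there was 1 of 21, beside 5.24% of all.

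Groups without overlap, meaning that every differentiated RNA lay on one side of every undifferentiated RNA, were seen in 14 member probe sets on array A, of which 2 were higher and 12 lower in the differentiated RNAs. That is 29.8% of the members tested, beside 21.1% of all probe sets, with 10.1% of all probe sets lower and 11.0% higher. On array B the count was 3 of 21, or 14.3% beside 11.3%, with 1 higher (5.96% of all) and 2 lower (5.32% of all). The members' median difference was -0.35 on array A, beside 0.02 for all probe sets, and 0.39 on array B, beside 0.03. With 1 probe set a gene the median of 30 member genes was -0.36, beside 0.01 over 16461 genes. For this the brightest tested probe set was taken, from array A before array B. Since 28 of the 30 genes were tested on array A, this median mostly repeats array A. Since the RNA is of whole cultures, fewer cells of a type and less RNA per cell cannot be told apart in any of these values.

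**Figure D1:**
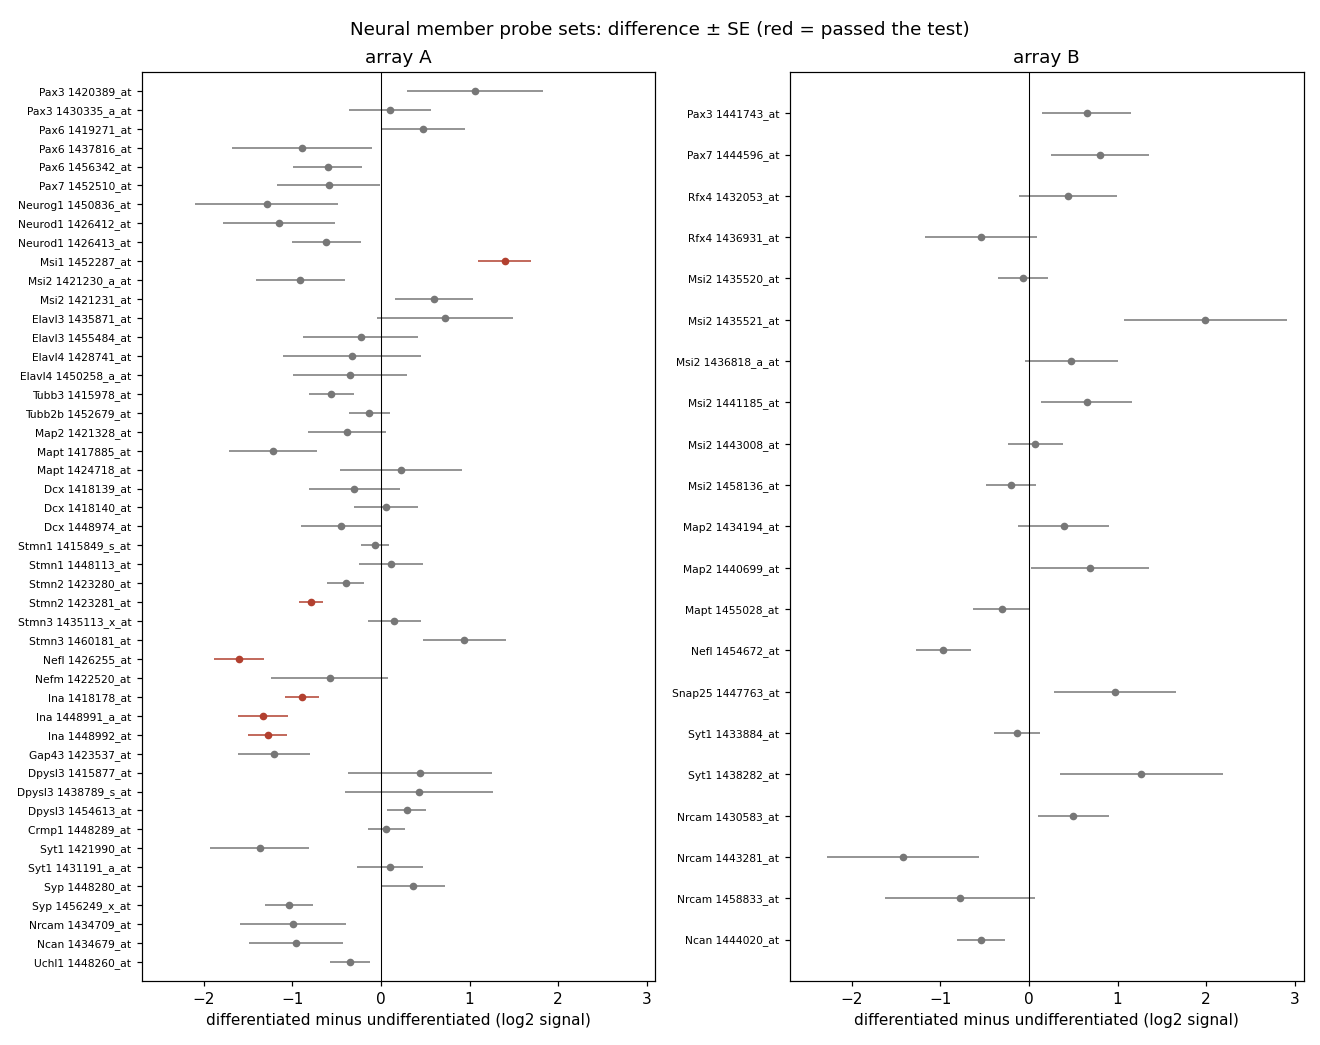
Difference in log2 signal, differentiated minus undifferentiated, for each tested member probe set of array A (left) and array B (right), with bars of 1 standard error (3 RNAs a group) and the probe sets that passed the test in red. The 5 probe sets that fell lie between -1.60 and -0.79 and the 1 that rose lies at 1.40, all on array A.

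Ina encodes alpha-internexin, the neurofilament subunit that neurons make first. Its promoter is shown because Ina was the member with the most probe sets past the test. The 250 bases before the transcription start, on the plus strand of chr19:47014431-47014680 (RefSeq, GRCm38.p6), are printed 5′ to 3′, with capitals on the CAGCTG match to the E-box letters CANNTG and on the 2 reverse-strand matches (CCGCCC) to the GC-box letters GGGCGG.
Ina: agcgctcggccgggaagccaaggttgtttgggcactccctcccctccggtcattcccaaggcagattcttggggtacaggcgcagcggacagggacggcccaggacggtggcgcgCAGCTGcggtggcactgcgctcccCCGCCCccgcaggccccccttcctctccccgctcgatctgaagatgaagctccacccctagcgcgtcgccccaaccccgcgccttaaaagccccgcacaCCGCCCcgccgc
Both strands were searched and no matches overlap. CANNTG, the letters that basic helix-loop-helix factors read, occurs in 66.2% of 32851 promoters of the same length and GGGCGG in 32.7%. TATAAA, held by 12.4%, and GGACAGC, a core of the site of the repressor Rest held by 5.3%, are not in this window. These are matches of letters and not measured sites.

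All 3 Ina probe sets fell. The probe set 1448992_at had scaled signals of 329, 489 and 502 in D1, D2 and D3, against 934, 1155 and 1080 in U1, U2 and U3. Every differentiated RNA was below every undifferentiated one, by a log2 difference of -1.28 ± 0.22 (SE), or 2.44-fold lower (limma, Benjamini-Hochberg adjusted p = 0.0103). For 1448991_a_at the signals were 664, 1373 and 1018 in the differentiated RNAs, against 1685, 3114 and 2789 in the undifferentiated ones. D1 and U1 were the lowest of their groups there, the groups did not overlap, and the difference was -1.33 ± 0.28 (SE, adjusted p = 0.0328). The probe set 1418178_at read 814, 687 and 1048 in D1 to D3, against 1554, 1714 and 1408 in U1 to U3, again with no overlap and with a difference of -0.89 ± 0.19 (SE, adjusted p = 0.0300).

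Nefl encodes the light neurofilament subunit, around which the polymer of the axon forms. Its probe set on array A had 277, 230 and 253 in D1, D2 and D3, against 1078, 563 and 737 in U1, U2 and U3. The 3 differentiated RNAs lay close together, and the lowest undifferentiated RNA was above all of them. Nefl fell 3.03-fold, a log2 difference of -1.60 ± 0.28 (SE, limma adjusted p = 0.0108), the lowest of any member on array A. On array B a separate Nefl probe set had 705, 635 and 448 in the differentiated RNAs, against 1221, 1127 and 1091 in the undifferentiated ones. The groups did not overlap there either, but the difference of -0.97 ± 0.31 did not pass (unadjusted p = 0.0117, adjusted p = 0.841).

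Nefm, the medium subunit and the next coding gene to Nefl on chromosome 14, was dim in both groups, with 108, 78.1 and 15.3 in D1, D2 and D3, against 89.0, 108 and 94.0 in U1, U2 and U3. The groups overlapped and its difference of -0.58 ± 0.66 (SE, adjusted p = 0.752) was within the spread. Across the 5 neurofilament probe sets of array A, 4 fell and 1 did not pass. Their mean log2 signal relative to the undifferentiated mean was -1.16, -1.03 and -1.22 in D1, D2 and D3, against -0.07, 0.07 and -0.00 in U1, U2 and U3. In this mean every differentiated RNA lay below every undifferentiated one. Ina supplied 3 of the 5 probe sets, and none of the 4 calls passed without U3.

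**Figure D2:**
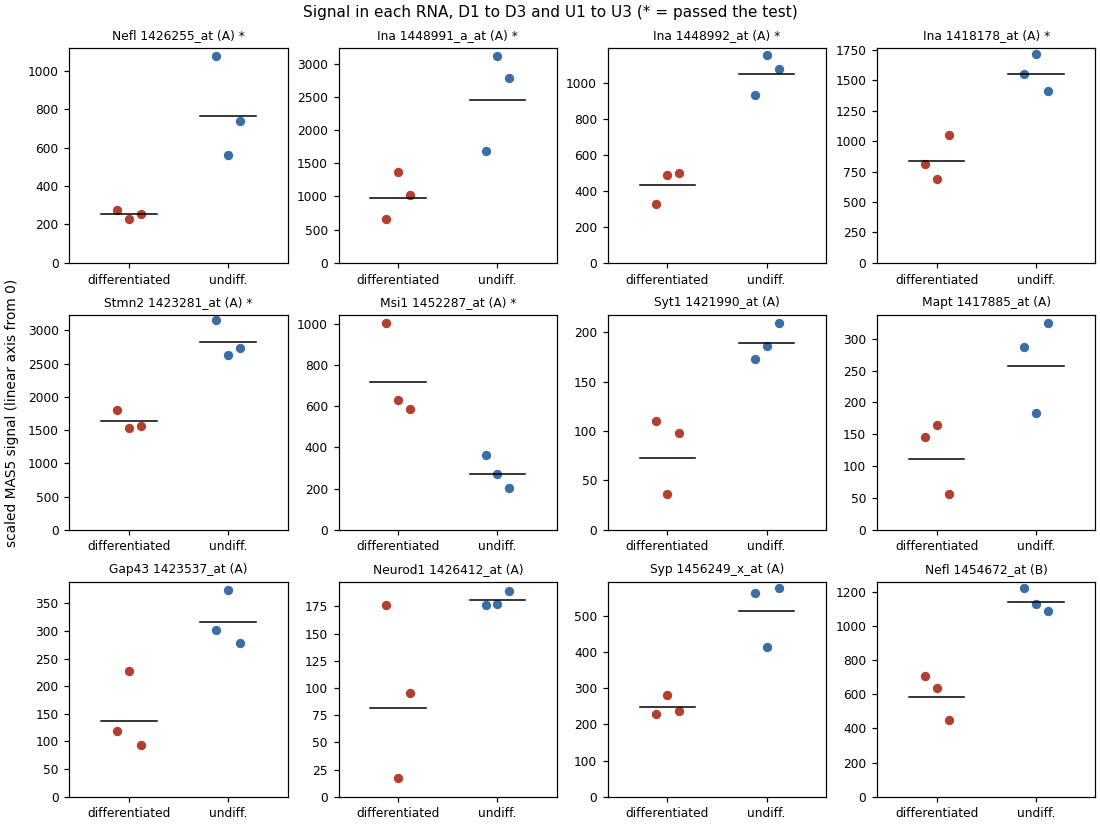
Scaled signal of each RNA, on a linear axis from 0, for the 6 member probe sets that passed the test (asterisks), for 5 on array A without overlap and a log2 difference of at least 1 in size that did not pass, and for Nefl on array B, with lines at the mean of the log2 signals after the floor, put back on the linear scale. The differentiated points of Ina, Nefl and Stmn2 lie below all undifferentiated points and those of Msi1 lie above, while in Neurod1 D1 is level with U1.

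Stathmins bind tubulin and loosen microtubules. Stmn2, the stathmin of growing axons, had 1800, 1538 and 1566 in D1, D2 and D3, against 3152, 2622 and 2735 in U1, U2 and U3 on its brighter probe set. The groups were well apart, and Stmn2 fell 1.73-fold there (-0.79 ± 0.14, SE, limma adjusted p = 0.0111). Its other probe set had 749, 869 and 724 in the differentiated RNAs, against 1330, 990 and 815 in the undifferentiated ones. D2 was above U3, so the groups overlapped, and the difference was -0.40 ± 0.21 (SE, adjusted p = 0.402). Stmn1, the stathmin of dividing cells in many tissues, had high signals in both groups, with 7338, 10408 and 10689 in D1 to D3, against 8999, 10543 and 9893 in U1 to U3 (-0.07 ± 0.16, SE, adjusted p = 0.896). Stmn3, another stathmin of neurons, had 182, 155 and 182 in the differentiated RNAs, against 94.4, 115 and 66.9 in the undifferentiated ones on one probe set. Those groups did not overlap, with Stmn3 on the opposite side to Stmn2, but the difference of 0.94 ± 0.47 (SE, adjusted p = 0.380) did not pass, and the other Stmn3 probe set lay at 0.15 ± 0.30.

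Msi1 encodes Musashi 1, which binds messenger RNA and holds back its translation in neural stem cells, and it is also made by other epithelial stem cells. It had 1003, 628 and 586 in D1, D2 and D3, against 364, 273 and 202 in U1, U2 and U3. All 3 differentiated RNAs were above all undifferentiated ones, with D1 the highest. Msi1 rose 2.64-fold (1.40 ± 0.30, SE, limma adjusted p = 0.0349), and it was the 1 member probe set called higher. The other Msi1 probe sets were too dim to test.

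Msi2, the second Musashi protein, had 8 tested probe sets, and their differences ran from -0.91 to 1.99. None passed. Its brightest probe set, on array B, had 1597, 2365 and 1845 in the differentiated RNAs, against 1836, 3037 and 1913 in the undifferentiated ones (-0.20 ± 0.28, SE, adjusted p = 0.910). The largest difference, on 1435521_at, came from signals of 979, 311 and 453 in D1 to D3, against 439, 34.1 and 146 in U1 to U3. D2 was below U1 there, and U2, which stood apart on array B, was the lowest (1.99 ± 0.92, SE, adjusted p = 0.841).

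Neural tube transcription factors gave no call. On array A 6 of their probe sets were tested and on array B 4, with differences from -0.89 for Pax6, the factor of eye and forebrain, to 1.06 for Pax3, the factor of the dorsal neural tube and the neural crest. The brightest on array A, of Pax3, had 387, 415 and 126 in D1, D2 and D3, against 191, 288 and 302 in U1, U2 and U3, and D3 lay below every other RNA (0.10 ± 0.46, SE, adjusted p = 0.952). The 3 tested Pax6 probe sets ran from -0.89 to 0.48. Pax7, which marks dorsal neural tube and muscle progenitors, had differences of -0.59 and 0.80 on its 2 probe sets, and Rfx4, a factor needed for the dorsal brain in mice, of -0.54 and 0.44.

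Among the proneural factors, Neurod1, which drives neuronal and endocrine differentiation, had 188, 264 and 193 in D1, D2 and D3, against 191, 410 and 443 in U1, U2 and U3 on its brighter probe set, with overlap (-0.62 ± 0.39, SE, adjusted p = 0.503). Its other probe set had 176, 17.1 and 95.1 in the differentiated RNAs, against 176, 177 and 189 in the undifferentiated ones. D1 and U1 were nearly tied, so the separation of the groups is slight (-1.15 ± 0.63, SE, adjusted p = 0.430). Neurog1, a proneural factor of sensory neurons, had 85.8, 13.6 and 37.9 in D1 to D3, against 39.8, 184 and 208 in U1 to U3. U1 lay within the differentiated range, and the difference was -1.29 ± 0.81 (SE, adjusted p = 0.501).

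Tubulins and microtubule-associated proteins gave 0 calls among 8 probe sets on array A and 3 on array B. Tubb3, the class III beta-tubulin used as a marker of neurons, had 286, 297 and 350 in D1, D2 and D3, against 428, 439 and 512 in U1, U2 and U3. The groups did not overlap, yet the difference of -0.56 ± 0.25 (SE, adjusted p = 0.295) did not pass. Tubb2b, a beta-tubulin of migrating neurons, was the brightest of this group on array A, with 682, 707 and 758 in the differentiated RNAs, against 1025, 831 and 568 in the undifferentiated ones (-0.13 ± 0.23, SE, adjusted p = 0.845). U3 was below every differentiated RNA.

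Mapt, which encodes the axonal protein tau, had 146, 164 and 56.1 in D1, D2 and D3, against 287, 184 and 324 in U1, U2 and U3 on 1417885_at. The groups did not overlap, but D2 and U2 were close (-1.22 ± 0.50, SE, adjusted p = 0.265). The other tested Mapt probe sets lay at 0.23 on array A and -0.31 on array B. Map2, a microtubule-associated protein of dendrites, and Dcx, the doublecortin of migrating neurons, had differences from -0.45 to 0.69, and each had probe sets on both sides of 0.

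Growth cone proteins gave no call. Gap43, a membrane protein of growing axons, had 119, 227 and 94.0 in D1, D2 and D3, against 301, 375 and 278 in U1, U2 and U3. Every differentiated RNA was lower, and the difference of -1.21 ± 0.41 (SE, adjusted p = 0.176) did not pass. Dpysl3 and Crmp1 encode collapsin response mediator proteins, which relay guidance signals to the growth cone. The brightest probe set, of Dpysl3, had 1217, 1009 and 758 in the differentiated RNAs, against 870, 653 and 892 in the undifferentiated ones (0.29 ± 0.22, SE, adjusted p = 0.585), and the groups overlapped. Crmp1 lay at 0.06 ± 0.21.

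Synaptic genes gave no call either. Syp encodes synaptophysin, an abundant membrane protein of synaptic vesicles, and its probe set 1456249_x_at had 230, 282 and 238 in D1, D2 and D3, against 564, 415 and 577 in U1, U2 and U3. The groups were apart, and at -1.04 ± 0.27 (SE) the adjusted p of 0.0658 missed the threshold. It passed, at 0.0398, where the filter on dim probe sets was a mean log2 signal of 8. The other Syp probe set had the opposite sign (0.36 ± 0.36).

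Syt1 encodes synaptotagmin 1, the calcium sensor of vesicle release. Its probe set 1421990_at had 110, 36.2 and 98.2 in D1, D2 and D3, against 173, 186 and 209 in U1, U2 and U3, without overlap (-1.37 ± 0.56, SE, adjusted p = 0.261). A brighter Syt1 probe set on array B had 1043, 1170 and 1059 in the differentiated RNAs, against 1339, 1094 and 1187 in the undifferentiated ones, with overlap (-0.14 ± 0.26, SE, adjusted p = 0.926). Its other tested probe sets lay above 0, at 0.10 ± 0.37 (SE) on array A and 1.27 ± 0.92 (SE) on array B, and overlapped, so Syt1 had no common direction. Snap25, a membrane-fusion protein of the synapse, was tested on array B alone, with 171, 124 and 177 in D1 to D3, against 97.4, 6.6 and 159 in U1 to U3, where D2 was below U3 (0.97 ± 0.69, SE, adjusted p = 0.841).

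Among the remaining members, Ncan encodes neurocan, a proteoglycan of brain matrix, and its array B probe set had 1015, 1071 and 838 in D1, D2 and D3, against 1366, 1675 and 1226 in U1, U2 and U3. The groups did not overlap, with a difference of -0.54 ± 0.27 (SE, adjusted p = 0.841). On the tested Ncan probe set of array A the groups overlapped (-0.96 ± 0.53, SE, limma adjusted p = 0.438). Nrcam, a neuronal adhesion protein, had differences from -1.42 to 0.50 on 4 probe sets. Elavl3 and Elavl4 encode RNA-binding proteins of neurons, and their 4 tested probe sets had differences from -0.35 to 0.72. The brightest, of Elavl4, had 337, 116 and 14.3 in D1, D2 and D3, against 91.9, 193 and 141 in U1, U2 and U3, so that D1 was the highest and D3 the lowest of all RNAs (-0.33 ± 0.78, SE, adjusted p = 0.895). Uchl1, the abundant ubiquitin hydrolase of neurons, had 623, 501 and 629 in the differentiated RNAs, against 988, 664 and 615 in the undifferentiated ones (-0.35 ± 0.23, SE, adjusted p = 0.532). D1 and D3 were above U3.

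**Figure D3:**
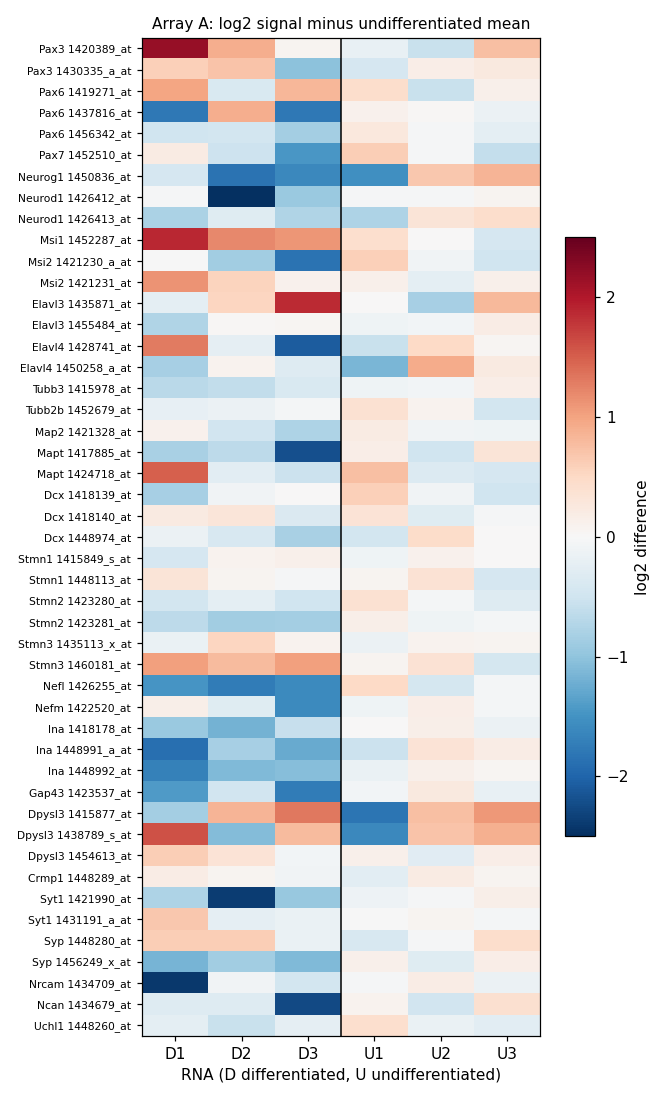
Log2 signal of each tested member probe set of array A in each RNA, relative to that probe set's mean in the undifferentiated RNAs, with probe sets in the order of their roles and differentiated RNAs left of undifferentiated ones. The neurofilament probe sets of Ina and Nefl are low in D1, D2 and D3 alike, while in most other groups the sign differs between probe sets or between RNAs.

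Probe sets of the same gene often differed in sign. Of 21 member genes with more than 1 tested probe set, 12 had differences on both sides of 0, 6 had all below 0 (Elavl4, Ina, Ncan, Nefl, Neurod1 and Stmn2), and 3 had all above 0 (Dpysl3, Pax3 and Stmn3). Ina was the 1 member for which more than 1 probe set passed. Of the 68 tested member probe sets, 11 had at least 1 array at the floor.

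Other neural genes were read from lists of progenitor, neurogenic, cytoskeletal, synaptic, adhesion and RNA-processing genes and of the Rest complex, none of them members. On array A, 3 of their 128 probe sets rose, 2 fell and 123 did not pass, with a median of 0.07. The share called there, 3.91%, stands near the 2.87% of all probe sets, and the share that fell, 1.56%, beside 1.56%. On array B 0 of 85 passed, beside 0.0197% of all, with a median of 0.25. Groups did not overlap in 24 of the 128 on array A (18.8%, beside 21.1% of all), with 14 higher and 10 lower. On array B they did not overlap in 17 of 85 (20.0%, beside 11.3% of all). Of these 15 were higher and 2 lower, beside 5.96% and 5.32% of all probe sets. At an unadjusted limma p under 0.05 there were 21 of 128 on array A, beside 15.8% of all, and 10 of 85 on array B, beside 5.24%. Sox11, a factor of late progenitors and young neurons, rose on array A (1.54 ± 0.33, SE, limma adjusted p = 0.0328). Its signals there were 509, 371 and 663 in D1, D2 and D3, against 136, 202 and 185 in U1, U2 and U3. The Sox11 probe sets of array B lay at 0.23 to 1.03 and did not pass. Nes, which encodes the progenitor intermediate filament nestin, had 457, 764 and 560 in the differentiated RNAs, against 1488, 1111 and 1306 in the undifferentiated ones, and fell on that probe set (-1.16 ± 0.22, SE, adjusted p = 0.0176). The other tested Nes probe set lay at -0.20 and did not pass.

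Marcks, an actin-binding substrate of protein kinase C in many cell types, rose on 1415973_at (1.39 ± 0.32, SE, limma adjusted p = 0.0475). Its signals there were 708, 517 and 641 in D1 to D3, against 350, 241 and 153 in U1 to U3. The other Marcks probe sets lay at 0.42 to 1.17 on array A and at -0.84 on array B, and did not pass. Syt11, a synaptotagmin, fell on 1456464_x_at (-1.03 ± 0.22, SE, adjusted p = 0.0352). It had 653, 530 and 620 there in the differentiated RNAs, against 883, 1359 and 1511 in the undifferentiated ones. Other Syt11 probe sets lay at -0.25 and -1.68 on array A and at 0.06 for 1429314_at on array B, and did not pass. Nefh, the heavy neurofilament subunit, was dim, with 50.8, 143 and 132 in D1, D2 and D3, against 246, 180 and 235 in U1, U2 and U3. Its groups did not overlap, and the difference of -1.14 had an adjusted p of 0.305.

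Rest is the repressor that keeps many neuronal genes silent outside neurons. Its brighter probe set on array A had 720, 807 and 1262 in D1, D2 and D3, against 741, 1059 and 1517 in U1, U2 and U3, with overlap (-0.23 ± 0.28, SE, adjusted p = 0.770). Of 17 probe sets of Rest and its partners on array A, 1 rose, that of the histone deacetylase Hdac2, with 663, 685 and 809 in the differentiated RNAs, against 395, 378 and 304 in the undifferentiated ones (1.01 ± 0.22, SE, limma adjusted p = 0.0367).

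**Figure D4:**
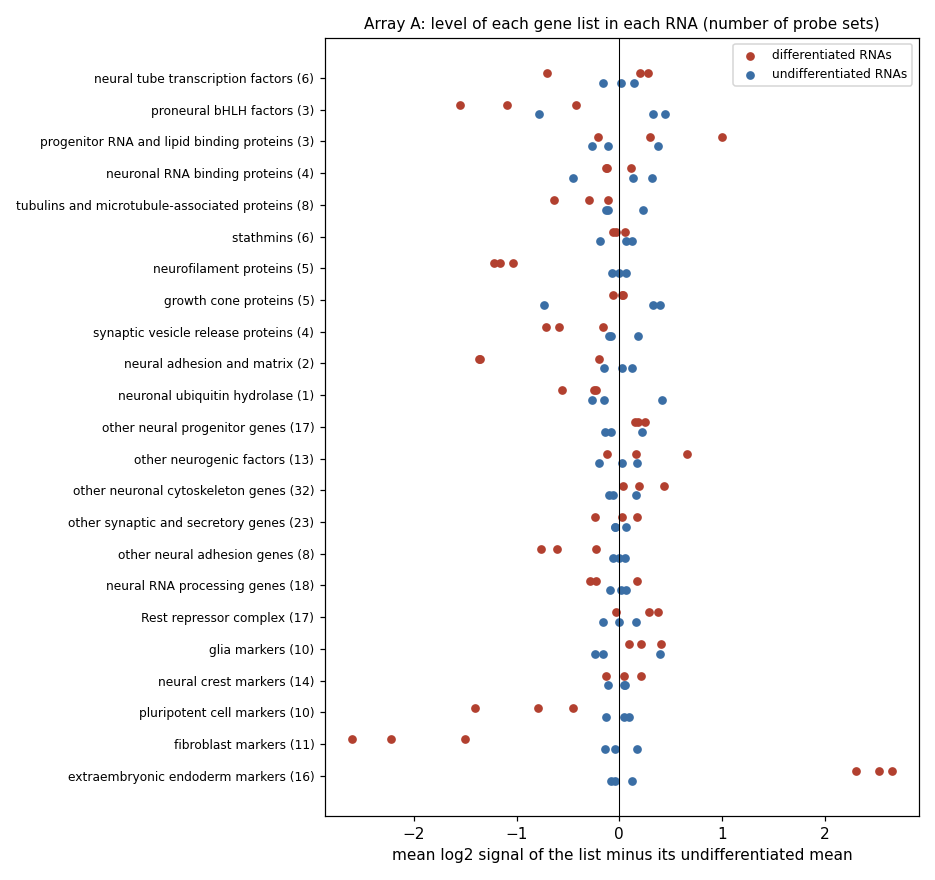
Mean log2 signal of each list's tested array A probe sets in each RNA, minus the list's mean in the undifferentiated RNAs, for the member groups, the other neural lists and markers of other cell types (number of probe sets in brackets). The differentiated RNAs lie at -1.16, -1.03 and -1.22 for neurofilament proteins, below the undifferentiated ones, and farther from 0 for fibroblast markers (below) and extraembryonic endoderm markers (above).

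Markers of other cell types moved with the groups, and some did so by more than any member. The 11 tested fibroblast probe sets of array A had 0 that rose and 5 that fell, with 10 below 0 and 1 above, that of Lum (0.84). Their summed signal was 2788, 1979 and 1368 in D1, D2 and D3, against 7824, 8730 and 8393 in U1, U2 and U3. Pdgfrb, Postn and Dcn were too dim to test on array A, and Dcn lay at 0.74 on array B. Neither Lum nor Dcn passed. S100a4 had a difference of -3.83. Col1a1, the main collagen of fibroblasts, had 2 of its 3 differentiated RNAs below the floor on 1423669_at, so its difference of -5.09 depends on the floor (-4.37 to -5.66 over the alternatives), and its other probe set lay at -0.67 and did not pass. The summed signal goes in the direction of Ina, Nefl and Stmn2, which were also brighter in the undifferentiated RNAs. The 14 tested neural crest probe sets of array A showed no common direction, with 7 above 0, 7 below, a median of 0.02 and summed signals of 4275, 3990 and 3958 in D1 to D3, against 4091, 4103 and 4242 in U1 to U3. Of these 1 fell, that of Ngfr, the nerve growth factor receptor of neural crest and of some mesenchymal cells (-2.06 ± 0.33, SE, limma adjusted p = 0.00741), while Snai2 lay above 0 (0.80 and, on array B, 2.33) and did not pass. The part of fibroblast markers in the neurofilament difference was not tested.

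Extraembryonic endoderm markers lay on the other side, with 11 of 16 probe sets on array A that rose. Their summed signal was 14017, 14456 and 17018 in D1, D2 and D3, against 2321, 2164 and 2337 in U1, U2 and U3. Ttr, Apoa1 and Sox17 each had more than 1 of these calls, and no Afp probe set was bright enough to test. On array B none of 3 endoderm probe sets passed, with 2 above 0 and that of Gata6 at -0.13. Spink1 had a difference of 3.94. Ttr, the transthyretin of visceral endoderm, was below the floor in all 3 undifferentiated RNAs on 1451580_a_at, so it was at least 29.6-fold higher against the floor of 32, and at a floor of 64 its difference was 3.89 (adjusted p = 0.0592). Msi1 and Sox11 moved in the same direction, and the part of endoderm markers in their differences was not tested. All 10 pluripotent cell probe sets of array A lay below 0, with a median of -0.69. Groups did not overlap in 6 of them, or 60.0%, beside 10.1% of all probe sets that were lower without overlap. Their summed signal was 19746, 38359 and 42725 in D1, D2 and D3, against 53136, 60631 and 58283 in U1, U2 and U3. Dppa5a supplied more of this sum than any other probe set, with 9203, 22333 and 24497, against 33326, 37827 and 35777. On array B 1 of 3 probe sets lay above 0, that of Esrrb (0.14). The array A direction is also that of Ina, Nefl and Stmn2, and the part of pluripotent cell markers in their differences was not tested. Among these markers 1 probe set fell, that of Klf4 (-1.64), and Zfp42 (-1.18), Dppa5a (-1.05) and Pou5f1 (-0.27) did not pass. Glial markers gave 0 calls among 10 probe sets, with summed signals of 2767, 2239 and 2196 in D1 to D3, against 2516, 2097 and 2010 in U1 to U3. No list had a gene at the floor on every array.

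Without U3, 0 of the 6 member calls passed, and the calls over all of array A went down to 181, against 518 with every RNA. The differences without U3 were -1.63 for Nefl, -0.82 for Stmn2, 1.19 for Msi1 and -0.96 to -1.27 for Ina, with adjusted p-values of 0.0649 for Nefl, 0.0583 for Stmn2, 0.137 for Msi1 and 0.0690 to 0.142 for Ina. Msi1 passed without U1 (adjusted p = 0.0295) and missed without any other single RNA (0.0650 to 0.137), and Ina 1418178_at passed without D3 (0.0252) and missed otherwise (0.0547 to 0.150). Ina 1448991_a_at passed without D2 or U1 and missed otherwise (0.0650 to 0.149). Without U2 the calls left were those of Nefl and Stmn2, and without D1 they were those of Nefl, Stmn2 and Ina on 1448992_at. With the array lot as a block, which sets D1, D2 and D3 against U1 alone, Nefl passed (-2.09, adjusted p = 0.0339) and the others did not: Stmn2 lay at -0.95 (adjusted p = 0.0720), Msi1 at 0.98 (adjusted p = 0.468), and Ina at -1.11 on 1448992_at, -0.79 on 1448991_a_at and -0.89 on 1418178_at (adjusted p = 0.221, 0.506 and 0.277). All 6 kept their direction in each of the 16 alternatives in which they were tested.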

How the data were processed

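The authors deposited 1 linear signal intensity for each probe set on each array, made with MAS5 per the submitters' processing notes. Its version and any test by the authors: not given in the sources used here. The 2% trimmed mean of every deposited array lay between 1500.1 and 1500.5, so the authors had scaled each array. The experiment settings deposited for each array gave lot and fluidics station. Gene names came from the platform annotation, and all 35 members matched the RefSeq gene table.

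Here every array was rescaled so that its 2% trimmed mean was 500. Values below 32 were raised to 32 before log2 was taken. Controls, and probe sets whose log2 signal averaged below 6 across the 6 arrays, were dropped. Differences were tested with limma 3.58.1 (lmFit, then eBayes allowing an intensity trend; R 4.3.3), two-sided, separately for each array type, with Benjamini-Hochberg adjustment over all its probe sets and a threshold of 0.05. No covariate entered. The script was tested on simulated data. The number of arrays, 3 a group and type, limits the precision, and no detection calls were used.

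The members and lists were chosen with earlier results of these data known. Values in every RNA are given for member probe sets that passed, for those without overlap and a log2 difference of at least 1 in size, and for the brightest of each role. Further genes were given by name to account for the other members. From the other lists the 2 passing genes of largest difference in each direction were named. Tubb3, Stmn3 on its dimmer probe set, Ncan, Nefh, Snai2, Zfp42, Dppa5a, Pou5f1, Rest and the second Col1a1 probe set were given values after these had been seen. The same holds for Lum, Dcn, Fabp7, Neurog2 and the array B probe sets of Esrrb and Gata6. It also holds for the probe sets of Sox11, Marcks and Syt11 that did not pass. The counts of the other neural lists without overlap, or at an unadjusted limma p under 0.05, were likewise added later.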

Additional observations from a re-analysis of the deposited data

How the results depend on the processing

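Dim probe sets near the floor have imprecise differences, 3 RNAs a group limit every test, and on array A the fluidics station cannot be told apart from the group. Against 518 probe sets called on array A, the number became 194 at a floor of 64, 194 with no filter on dim probe sets, 307 with median centring, 97 with no intensity trend, 319 with adjustment over both array types and 106 with the lot as a block (41 higher and 65 lower). Leaving out 1 RNA gave 181 to 497. On array B, 4 became 2 at a floor of 16, 0 at 64, 1 without the filter, 2 with median centring, 0 without the trend, 10 with adjustment over both, 0 with the station as a block and 0 to 2 without 1 RNA. The 6 member calls became 0 at a floor of 64 and 0 without the trend, 1 without the filter, 3 with adjustment over both, 4 with median centring (2 Ina probe sets missed, adjusted p = 0.0710 and 0.0740), 1 with the lot block and 0 to 5 without 1 RNA. On array B they stayed 0. The 5 calls of other neural genes became 0 at a floor of 64, without the filter, without the trend or with the lot block, 1 with median centring or adjustment over both, and 0 to 3 without 1 RNA. The median of member genes ran from -0.42 to -0.25 without 1 RNA.

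The groups share replicate numbers, which no label ties to a common source. Same-numbered deviations correlated at 0.16, 0.01 and 0.07 on array A, against -0.15 to 0.09 for different numbers, and at 0.18, 0.10 and 0.12 on array B, against -0.14 to 0.03. Every RNA correlated best with its own number on array B but not on array A, which is a hint from the data and not the design, and the RNAs were not treated as pairs. With the replicate block, array A had 724 calls, array B 1, the members 6 and the other neural genes 6.

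Of 1050 member values under alternatives, 964 kept side and direction, 45 lost a call, 1 gained one and 40 changed sign, over 23 probe sets that had not passed. With the lot or station as a block the changed signs were 0.24 for Neurog1, 0.16 for Neurod1 1426413_at, 0.16, -0.13 and 0.06 for Msi2 (1435520_at, 1436818_a_at, 1458136_at), 0.23 and 0.79 for Elavl4, -0.53 for Mapt 1424718_at, -0.28 and 0.00 for Dcx (1418140_at, 1448974_at), 0.05 for Stmn1 1415849_s_at, and -0.12 and 0.45 for Nrcam (1430583_at, 1458833_at). Leaving out 1 RNA in turn moved these probe sets across 0: Pax3 1430335_a_at (-0.21 to 0.65), Msi2 1435520_at (-0.19 to 0.12), 1436818_a_at (-0.17 to 0.83), 1443008_at (-0.05 to 0.30) and 1458136_at (-0.36 to 0.03), Elavl3 1455484_at (-0.37 to 0.04), Elavl4 1428741_at (-1.16 to 0.54) and 1450258_a_at (-0.93 to 0.11), Tubb2b (-0.37 to 0.06), Mapt 1424718_at (-0.40 to 0.61), and Dcx 1418140_at (-0.09 to 0.26). The same held for Stmn1 1415849_s_at (-0.16 to 0.11) and 1448113_at (-0.10 to 0.29), Stmn3 1435113_x_at (-0.03 to 0.31), Dpysl3 1415877_at (-0.47 to 1.08) and 1438789_s_at (-0.38 to 1.18), Crmp1 (-0.07 to 0.16), Syt1 1431191_a_at (-0.20 to 0.26) and Nrcam 1458833_at (-1.39 to 0.22). The cause was not tested.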
